A study of Mus musculus with 180 samples.

Results

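A set of 10 genes known for the first steps towards the lymphoid lineage was followed in single cells of 4 blood-forming populations. It comprised Dntt, Satb1, Runx3, Rag1, Rag2, Il7r, Ikzf1, Ikzf3, Notch1 and Ebf1, all taken by name, with earlier results of these data known. Satb1 and Runx3 are also genes that the study itself reports as upregulated in the CD11b+CD48+SK cells described below. The deposited table lists 8 of these 10 genes among its 14825 genes, and Ikzf3 and Ebf1 are not listed under a current or an older symbol. The 180 cells analysed were each sequenced as 1 library. They comprised 47 donor-derived CD11b+CD48+SK cells (labelled CD48+Mac1+SK), 41 WT-MPP, 36 BM HSC and 56 FL HSC.

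All mice were C57BL/6. The WT-MPP and BM HSC came from 8-week-old Hoxb5LSL/+ (Rosa LSL-Hoxb5-EGFP/+) mice, and the FL HSC came from embryos of that genotype at E14.5, sorted on CD150 and Mac1 within CD45.2+Lin- cells that were also Sca1+ and c-Kit+. These donors carried the Hoxb5 cassette behind a stop without Cre. The CD11b+CD48+SK cells were sorted from primary recipients at Week 8 post-transplantation. The study had transplanted MPP from Mx1cre/Rosa LSL-Hoxb5-EGFP/+ mice into irradiated CD45.1+ recipients together with Sca1- helper cells, and had injected pIpC, which drives the Mx1 promoter of Cre and so switches on Hoxb5. Transplantation, irradiation of the host, pIpC and the transgene were thus all particular to the CD11b+CD48+SK cells, and their parts in any difference cannot be told apart. MPP were gated as CD48-, CD11b-, CD150- and CD135+, so CD48, CD11b and CD135 (encoded by Cd48, Itgam and Flt3) belong to the sorts and are not findings between these populations.

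Lymphoid priming is the appearance of a few lymphoid transcripts in multipotent cells before they commit to a lineage. Ikaros, encoded by Ikzf1, and its relative Aiolos, encoded by Ikzf3, are zinc-finger regulators needed for or used in lymphoid development, Satb1 organises chromatin in lymphoid progenitors and thymocytes, Runx3 is a Runt-domain factor of cytotoxic T cells, and Ebf1 commits cells to the B lineage. Notch1 is the receptor that directs progenitors to the T lineage, and Il7r encodes a chain of the interleukin-7 receptor. Rag1 and Rag2 form the recombinase that cuts antigen receptor genes, and Dntt encodes TdT, the polymerase that adds nucleotides without a template at the cut ends. Dntt is known as one of the earliest lymphoid transcripts in Flt3-high multipotent progenitors of the marrow.

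Dntt, Rag1 and Rag2 serve the same reaction but were found in very different numbers of cells, so the bases before their starts are shown first, from RefSeq on GRCm38.p6, in the direction of each gene. Dntt lies on chromosome 19 at 41029275-41059525 on the plus strand in GENCODE M21, and its window is chr19:41029025-41029274. Rag1 (chr2:101638282-101649501, minus strand) and Rag2 (chr2:101624718-101632529, plus strand) are neighbours in opposite orientation, with windows at chr2:101649533-101649782 and chr2:101624462-101624711. Capitals mark, on either strand, the letters TGGGAA (core of Ikaros sites, which RBPJ of the Notch pathway also binds), AGGAAG (ETS), TGTGGT (Runt-domain factors) and CANNTG (E-box).
Dntt: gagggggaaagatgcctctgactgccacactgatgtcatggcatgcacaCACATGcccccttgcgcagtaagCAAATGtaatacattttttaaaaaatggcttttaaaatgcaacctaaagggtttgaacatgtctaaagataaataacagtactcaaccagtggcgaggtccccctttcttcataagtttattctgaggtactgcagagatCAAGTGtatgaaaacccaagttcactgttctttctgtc
Rag1: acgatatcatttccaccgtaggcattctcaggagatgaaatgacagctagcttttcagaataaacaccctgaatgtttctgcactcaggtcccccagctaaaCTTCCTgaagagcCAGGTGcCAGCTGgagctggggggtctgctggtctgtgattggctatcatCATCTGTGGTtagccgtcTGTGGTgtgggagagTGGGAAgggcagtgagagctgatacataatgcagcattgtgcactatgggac
Rag2: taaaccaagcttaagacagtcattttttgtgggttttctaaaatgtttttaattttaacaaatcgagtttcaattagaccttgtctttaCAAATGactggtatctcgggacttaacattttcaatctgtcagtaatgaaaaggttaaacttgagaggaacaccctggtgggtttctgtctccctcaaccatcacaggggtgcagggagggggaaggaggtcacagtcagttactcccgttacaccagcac
The Rag1 window holds TGGGAA with its first base 52 bases before the start, AGGAAG 148 bases before, TGTGGT at 81 and 67 bases before, and 3 E-boxes. The Dntt window holds 3 E-boxes, the nearest 38 bases before the start, and the Rag2 window holds 1 E-box at 161 bases, and neither holds any of the other letters. Of 32851 such windows of 250 bases, 21.6% hold TGGGAA, 29.5% AGGAAG, 14.05% TGTGGT and 66.2% CANNTG, so these matches are common and serve as a description of the letters only.

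A gene was counted in a cell when it reached 1 TPM, its length-scaled share of that cell's transcripts on the scale the study used. The labels tie no cell to an animal, and every population was therefore treated as a single sample. Populations could not be tested against each other, and the 95% exact Clopper-Pearson intervals given with shares of cells reflect how many cells were counted and nothing else. Read numbers cannot be had from TPM, which leaves the sequencing depth of each cell unknown. The median number of genes per cell was highest in FL HSC (5206.5), followed by CD11b+CD48+SK cells (4514), BM HSC (4441.5) and WT-MPP (3844). The gated markers were found where the sorts placed them for Cd48, which was in 47 of 47 CD11b+CD48+SK cells and 7 of 41 WT-MPP, but Itgam was in only 17 of the 47 CD11b+CD48+SK cells. Slamf1, encoding CD150, was in 31 of 56 FL HSC, 23 of 36 BM HSC and 3 of 41 WT-MPP.

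Among CD11b+CD48+SK cells Dntt was the most widespread of the 8 listed genes, and it was nearly absent from both stem cell populations. It was present in 44 of 47 CD11b+CD48+SK cells (93.6%, interval 82.5 to 98.7%), and the 3 remaining cells were listed at 0.355, 0.517 and 0.928 TPM. Its level in the CD11b+CD48+SK cells ran from 0.355 to 5177 TPM with a median of 262 TPM, and 29 cells reached 100 TPM. In WT-MPP it was present in 6 of 41 cells (14.6%, 5.57 to 29.2%), with a highest value of 342 TPM and a median listed at 0. The 2 ranges overlap, because 4 WT-MPP lay above 100 TPM and 18 CD11b+CD48+SK cells lay below it. No BM HSC reached 1 TPM (0 of 36, a count that allows up to 8.33%), the highest being 0.772 TPM, and Dntt was listed at 0 in all 56 FL HSC, which allows up to 5.36%. Taken as exact intervals, these counts of 0 run up to 9.74% for BM HSC and 6.38% for FL HSC. The interval of WT-MPP overlapped both, while that of CD11b+CD48+SK cells lay above all others.

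Within the CD11b+CD48+SK cells the levels of Dntt left a gap. Sorted by TPM, 14 cells lay at or below 14.998 TPM and 33 cells at or above 76.7 TPM, with none between, a step of 2.28 on the log2(TPM+1) scale that was located after the values were seen. The highest cell held 13.7% of the summed Dntt TPM of the population, so its mean of 807 TPM (SD 1185 over cells) does not rest on 1 cell. The mean in WT-MPP was 26.5 TPM (SD 82.6).

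**Figure D1:**
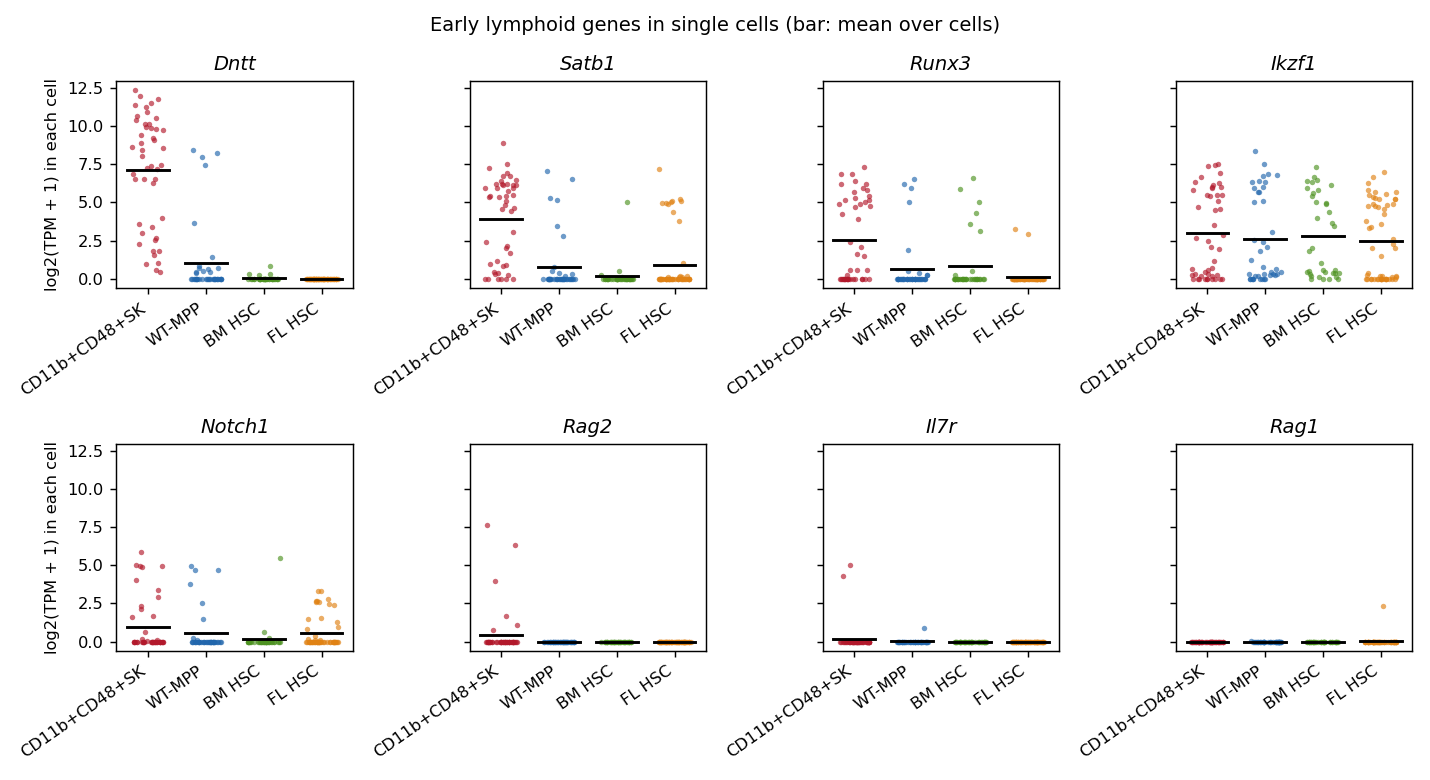
Level of the 8 listed genes in every cell, as log2(TPM+1), by population; each point is 1 cell and each bar is the mean over cells. Dntt is above 0 in all 47 CD11b+CD48+SK cells and at 0 in all 56 FL HSC, whereas the points for Ikzf1 cover overlapping ranges in all 4 populations.

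Of the regulators, Satb1 and Runx3 were found in more of the CD11b+CD48+SK cells than of the other populations, and Ikzf1 was not. Satb1 was present in 34 of 47 CD11b+CD48+SK cells (72.3%, 57.4 to 84.4%), from 0 to 472 TPM with a median of 32.9 TPM. Among FL HSC it was in 11 of 56 (19.6%, 10.2 to 32.4%), with a highest value of 143 TPM. Of the WT-MPP 6 of 41 held it (14.6%, up to 130 TPM), and of the BM HSC 1 of 36 (2.78%, at 31.2 TPM). The interval of the CD11b+CD48+SK cells lay above all others, and the intervals of WT-MPP and FL HSC overlapped.

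Runx3 was present in 24 of 47 CD11b+CD48+SK cells (51.1%, 36.1 to 65.9%), from 0 to 159 TPM with a median of 1.77 TPM. Next came BM HSC with 6 of 36 (16.7%, 6.37 to 32.8%), WT-MPP with 5 of 41 (12.2%, 4.08 to 26.2%) and FL HSC with 2 of 56 (3.57%, 0.44 to 12.3%). The 3 lower intervals overlapped one another, and the highest FL HSC held 8.59 TPM, against 92.5 TPM for WT-MPP and 94.2 TPM for BM HSC. In cells that held it, the median was 34.8 TPM among CD11b+CD48+SK cells, between the 25.1 TPM of the 6 BM HSC and the 60.4 TPM of the 5 WT-MPP, so it was by the share of cells that CD11b+CD48+SK cells stood apart from these populations.

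Ikzf1 was in about the same share of every population: 27 of 47 CD11b+CD48+SK cells (57.4%, 42.2 to 71.7%), 20 of 36 BM HSC (55.6%, 38.1 to 72.1%), 30 of 56 FL HSC (53.6%, 39.7 to 67.0%) and 20 of 41 WT-MPP (48.8%, 32.9 to 64.9%). All 4 intervals overlapped. Its mean log2(TPM+1) was 2.98, 2.84, 2.47 and 2.60 in that order, with an SD over cells of 2.78, 2.65, 2.49 and 2.88, so the means lay within 1 SD of each other.

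Notch1, the receptor, was a low and scattered transcript. It was in 12 of 47 CD11b+CD48+SK cells (25.5%, 13.9 to 40.4%), 12 of 56 FL HSC (21.4%, 11.6 to 34.4%), 6 of 41 WT-MPP (14.6%, 5.57 to 29.2%) and 1 of 36 BM HSC (2.78%, 0.07 to 14.53%). The intervals of neighbours in this order overlapped, as did the outermost pair. The highest cell held 56.7 TPM in CD11b+CD48+SK cells and 9.13 TPM in FL HSC, and the medians over all cells were 0 in every population.

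Il7r and the recombinase genes were rare. Il7r was in 2 of 47 CD11b+CD48+SK cells (4.26%, 0.52 to 14.54%), at 31.5 and 18.4 TPM, and in no other cell, the highest WT-MPP being listed at 0.85 TPM. Rag2 was in 5 of 47 CD11b+CD48+SK cells (10.6%, 3.55 to 23.1%), at 197, 79.9, 14.8, 2.23 and 1.13 TPM, and was listed at 0 in every other population's cells. Its interval overlapped those of the populations at 0, whose limits were 5.36% (FL HSC), 7.32% (WT-MPP) and 8.33% (BM HSC). Rag1 was in 0 of 47 CD11b+CD48+SK cells, a count that allows up to 6.38%, and its 1 cell at 1 TPM or more was an FL HSC at 3.98 TPM. The Rag locus also carries B230118H07Rik, a protein-coding gene that spans Rag1 on its own strand and Rag2 on the other. It was in 36 of 47 CD11b+CD48+SK cells, and in 2 of the 5 cells with Rag2. The strandedness of the libraries is not given in the sources used here, and without strand the reads of Rag2 and B230118H07Rik cannot be told apart where they overlap.

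**Figure D2:**
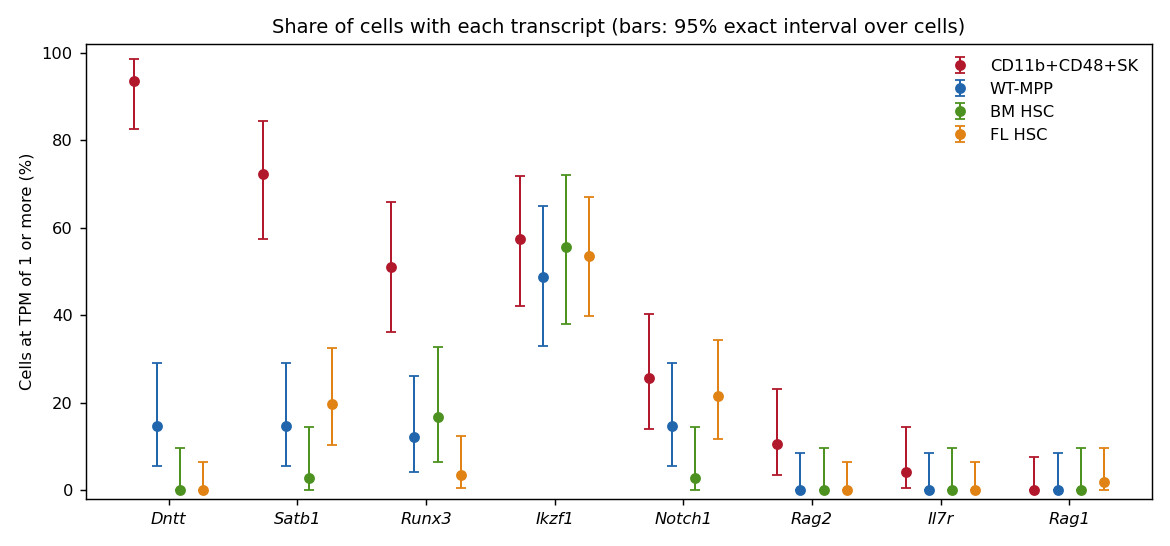
Share of cells at 1 TPM or more for the 8 listed genes, in percent, with 95% exact intervals over cells as bars. The intervals of CD11b+CD48+SK cells stand above all others for Dntt, Satb1 and Runx3 and overlap the others for Ikzf1, Notch1, Rag2, Il7r and Rag1.

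The comparison of population means singled out Dntt, Satb1 and Runx3, the last depending on the pseudocount. A difference of 1 or more in mean log2(TPM+1) was counted as a call, among 10856 genes at 1 TPM or more in at least 10% of cells of at least 1 population. Of the 8 listed genes, 6 passed that filter, Rag2 only through the CD11b+CD48+SK cells, while Rag1 and Il7r did not. Against WT-MPP, Dntt was higher in CD11b+CD48+SK cells by 6.10 (7.12 against 1.02), Satb1 by 3.14 (3.93 against 0.79) and Runx3 by 1.91 (2.56 against 0.66). These were 3 of the 8 listed genes, and none was lower, beside 19% of all genes tested that were higher and 5.01% that were lower. Satb1 and Runx3 had been named by the study from these same cells, so their calls are not independent of the choice of genes. The differences of the other genes past the filter were 0.46 for Rag2, 0.40 for Notch1 and 0.38 for Ikzf1, against a median of 0.21 over all genes tested. On the log2 of mean TPM plus 1, in place of the mean of logs, 10.3% of all genes were higher and 24.1% lower in this comparison, and the median shifted to -0.32. On that scale Dntt, Satb1 and Runx3 were still higher, by 4.88, 2.54 and 1.76, Rag2 joined them at 2.87, with 66.6% of its summed TPM in 1 cell, and Ikzf1 turned from 0.38 to -0.08. With a pseudocount of 10 in place of 1, Runx3 fell below the threshold against WT-MPP (0.82) and against BM HSC (0.78), and Dntt and Satb1 did not.

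Against BM HSC the same 3 of 8 were higher in CD11b+CD48+SK cells, Dntt by 7.07, Satb1 by 3.77 and Runx3 by 1.75, and none was lower, beside 13.4% of all genes higher and 11.8% lower. Against FL HSC they were higher by 7.12, 2.99 and 2.45, and none was lower, beside 4.02% of all genes higher and 20.9% lower. These 3 comparisons share the CD11b+CD48+SK cells and are not independent of each other. Since Dntt was listed at 0 in FL HSC, its 7.12 depends on the pseudocount and is not a fold change. Among populations without induced Hoxb5, no listed gene differed by 1 or more in mean log2(TPM+1), but some did under other settings. WT-MPP against BM HSC gave 0.97 for Dntt and 0.63 for Satb1, beside 2.67% of all genes higher and 14.49% lower. FL HSC against BM HSC gave 0.77 for Satb1 and -0.70 for Runx3, beside 25.6% of all genes higher and 5.44% lower. On the log2 of mean TPM plus 1, WT-MPP exceeded BM HSC by 4.72 for Dntt and 2.20 for Satb1, and FL HSC against BM HSC gave 2.12 for Satb1 and -2.50 for Runx3. Dntt in WT-MPP against BM HSC was also past 1 with a pseudocount of 0.1 (1.64), in scaled cells (1.04) and in cells with 3500 to 5500 genes (1.26).

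Most CD11b+CD48+SK cells held several of these transcripts at once. The median was 3 of the 8 listed genes per cell (range 0 to 6), against a median of 1 in each of the other populations (up to 3 in WT-MPP and FL HSC and up to 2 in BM HSC). At least 3 were found in 35 of 47 CD11b+CD48+SK cells (74.5%, 59.7 to 86.1%). The same held for 4 of 41 WT-MPP (9.76%, 2.72 to 23.1%), 2 of 56 FL HSC (3.57%, 0.44 to 12.3%) and 0 of 36 BM HSC (up to 8.33%). With Ikzf1 left out, which all populations share, 2 or more were found in 39 of 47 CD11b+CD48+SK cells (83.0%), 4 of 41 WT-MPP (9.76%), no BM HSC and 3 of 56 FL HSC (5.36%). The number of these genes per cell and the number of all genes per cell had a Spearman's rho of 0.25 over the 47 CD11b+CD48+SK cells and of 0.11 to 0.29 in the other populations, as a description with no p. In cells with 3500 to 5500 genes, 29 of 40 CD11b+CD48+SK cells (72.5%) and 4 of 30 WT-MPP (13.3%) held 3 or more.

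**Figure D3:**
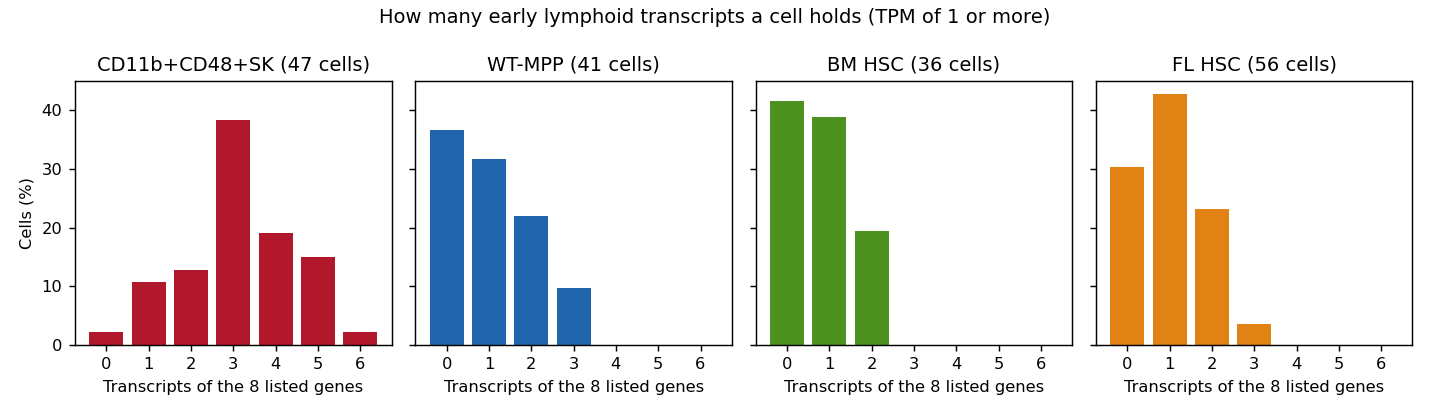
Number of the 8 listed genes at 1 TPM or more in a cell (horizontal axis) and the percent of cells with that number (bars), by population. CD11b+CD48+SK cells peak at 3 with 18 of 47 cells, and the other populations lie at 0 to 3.

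Co-detection in CD11b+CD48+SK cells was close to what the single shares give when multiplied. Dntt and Satb1 were both present in 33 of 47 cells (70.2%, 55.1 to 82.7%), against 31.8 cells for the product of their shares. Dntt was also in all 27 cells with Ikzf1 (product 25.3), all 12 with Notch1 (product 11.2), all 5 with Rag2, both with Il7r and 23 of the 24 with Runx3 (product 22.5). As Dntt was in 44 of 47 cells, such counts leave little room for any departure. Satb1 and Notch1 met in 11 cells (product 8.68), Satb1 and Runx3 in 18 (product 17.4), Satb1 and Ikzf1 in 20 (product 19.5) and Runx3 and Ikzf1 in 16 (product 13.8). All 5 cells with Rag2 also held Satb1 (product 3.62). The most frequent combinations were Dntt with Satb1 and Runx3, the same with Ikzf1 added, and the same with Ikzf1 and Notch1 added, in 5 cells each.

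In WT-MPP, Dntt met Satb1, Runx3, Notch1 and Ikzf1 in 1 to 5 cells each. Of the 6 cells with Dntt and the 6 with Satb1, 1 cell held both (product 0.88), and this cell, at 300 TPM of Dntt, 9.78 TPM of Satb1 and 31.2 TPM of Runx3, was also the 1 WT-MPP with Dntt and Runx3 (product 0.73). Dntt and Ikzf1 met in 5 WT-MPP (product 2.93) and Dntt and Notch1 in 3 (product 0.88). Stem cells with none of the genes were the most frequent (17 of 56 FL HSC and 15 of 36 BM HSC), followed by those with Ikzf1 alone, 16 of 56 FL HSC and 13 of 36 BM HSC. The FL HSC with Satb1 held no Dntt at all, and 6 of these 11 also held Ikzf1 (product of shares 5.89 cells).

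The level of Dntt, as opposed to its presence, varied most closely with Flt3 across the CD11b+CD48+SK cells. Spearman's rho between Dntt and Flt3, the receptor tyrosine kinase that marks lymphoid-primed progenitors, was 0.76 over 47 cells (Pearson's r 0.64 on the log2 scale), the highest of 7232 genes present in at least 20% of these cells, against a median of 0.00. In the 41 CD11b+CD48+SK cells with Flt3 the median of Dntt was 394 TPM, and in the 6 without it 6.86 TPM, with a highest value of 150 TPM. The ranges overlapped, since Dntt went down to 0.355 TPM among cells with Flt3. At 100 TPM or more, 24 cells held both, 5 held Dntt alone, 5 held Flt3 alone and 13 held neither. All 6 WT-MPP with Dntt held Flt3, at 90 to 1030 TPM, among 31 of 41 WT-MPP with Flt3. In FL HSC, Flt3 was in 30 of 56 cells with no Dntt in any. The CD11b+CD48+SK cells share 1 sorting gate and 1 amplification protocol, but no cell is tied to a recipient. The rho of Dntt with their number of genes was -0.03, and a technical part in the rho with Flt3 was not tested.

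**Figure D4:**
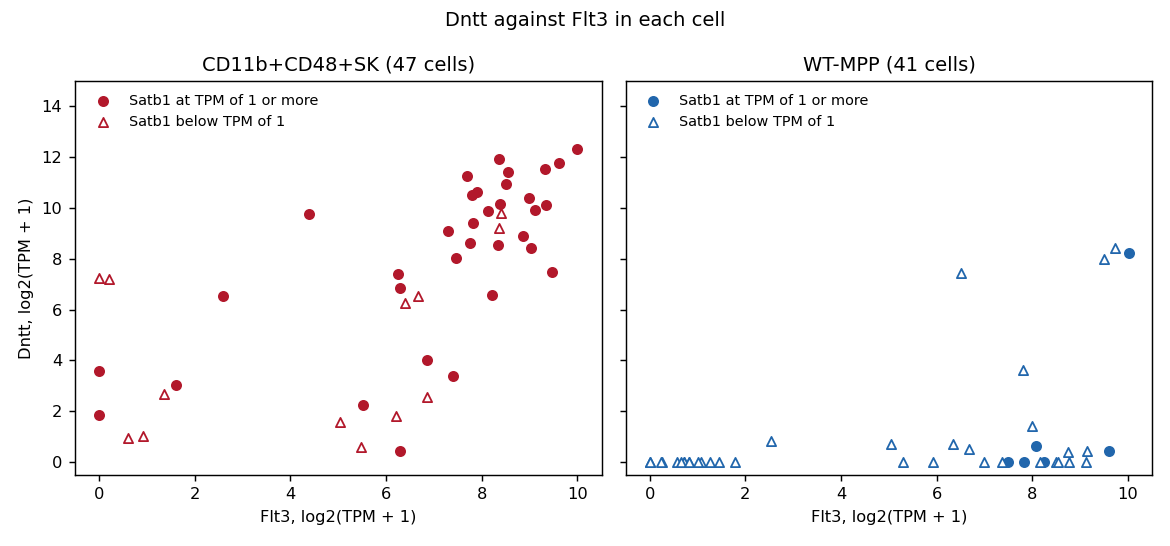
Dntt against Flt3 in each CD11b+CD48+SK cell (left) and WT-MPP (right), both as log2(TPM+1); filled circles hold Satb1 at 1 TPM or more and open triangles do not. The CD11b+CD48+SK cells with high Flt3 reach the highest Dntt, whereas most WT-MPP with Flt3 lie at or near 0 for Dntt.

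Satb1 was next to Dntt in this respect. Their rho was 0.57 (r 0.53), the highest of all genes for Satb1 and the fourth for Dntt, after Flt3, Sesn1, a stress-responsive regulator of mTORC1 (0.61), and Il12a, a subunit of interleukin-12 (0.60). The partners of Dntt were singled out after the values were seen, because Dntt was in too many cells for the rule on named partners. In the 34 cells with Satb1 the median of Dntt was 512 TPM, and in the 13 without it 5.39 TPM, although 1 of those reached 895 TPM. Satb1 and Flt3 had a rho of 0.44. The partners of Satb1 after Dntt were Haao (0.50) and Atp2c1 (0.49).

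For Runx3, Ikzf1 and Notch1 the coefficients with Dntt were positive but lower than that of Satb1. Runx3 had a rho of 0.26 with Dntt and 0.03 with Flt3, and Ikzf1 had 0.20 and 0.13. Notch1 had 0.27 and -0.05, and the median of Dntt was 1016 TPM in the 12 cells with Notch1 against 150 TPM in the 35 without. The genes most like Runx3 were Csnk1d (0.58), Rab22a (0.52) and Tm2d2 (0.52). Ikzf1 was most like Ptprc, which encodes the pan-leukocyte phosphatase CD45 (0.57), Cep19 (0.56) and Fam207a (0.55). For Notch1, with 12 positive cells, they were Atxn7l2 (0.64), Gm13212 (0.59) and Ptdss1 (0.52). Each of these is the upper end of 7232 coefficients over 47 sparse cells and is given as a rank, not as a relation.

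Myeloid and lymphoid transcripts stood side by side in most of these cells. Mpo, the neutrophil granule peroxidase, was in 43 of 47 CD11b+CD48+SK cells, and 40 held both Mpo and Dntt (product of shares 40.3). Both reached 100 TPM in 14 of the 47 cells, Dntt alone in 15, Mpo alone in 11 and neither in 7. The rho between Dntt and Mpo was -0.28, and between Satb1 and Mpo -0.28. In WT-MPP, Mpo was in 4 of 41 cells and met Dntt in 2. Hoxb5 was in 43 of 47 CD11b+CD48+SK cells, with Dntt in 40, and its rho with Dntt was 0.20. In FL HSC, Hoxb5 was in 32 of 56 cells, none of them with Dntt. Itgam met Dntt in 16 of its 17 CD11b+CD48+SK cells (rho -0.0034), and Cd48, present in every cell, had a rho of -0.28 with Dntt.

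**Figure D5:**
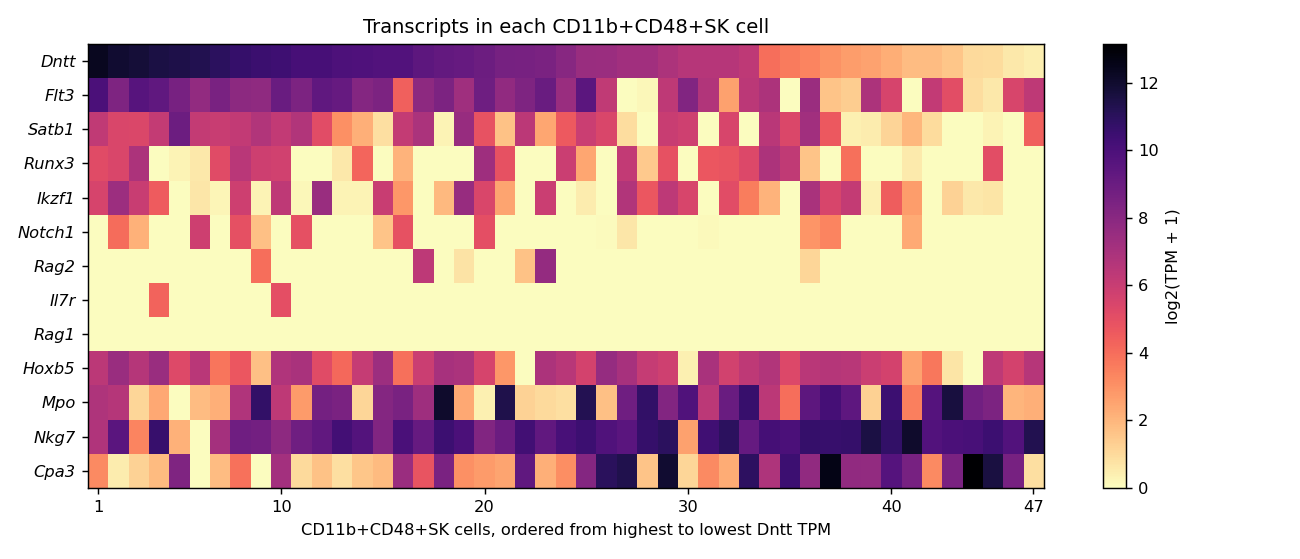
Level of selected genes, as log2(TPM+1) by colour, in each of the 47 CD11b+CD48+SK cells, ordered from highest (left) to lowest (right) Dntt. Flt3 and Satb1 are mostly high on the left, Rag1 is empty throughout, and Mpo and Cpa3 are present on both sides.

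Markers of B and T cells ranged from absent to frequent in CD11b+CD48+SK cells. Of 18 B cell markers 10 are listed, and 5 reached 1 TPM in any CD11b+CD48+SK cell. The surrogate light chain gene Vpreb1 was in 4 of the 47 cells, 1 of 41 WT-MPP, no BM HSC and 7 of 56 FL HSC. Igll1 was in 2 of the 47 cells and in no cell of the other populations, and Blk in 1 and in no other. Vpreb3 was in none of the 47 cells and in 4 of 41 WT-MPP. Bank1 was in none of the 47 cells, 2 of 41 WT-MPP and 13 of 56 FL HSC. Cd79a was in none of the 47 cells and Cd79b in 29, as against 26 of 41 WT-MPP. Cd74, the invariant chain of MHC class II, was in 28 of 47 and 18 of 41. The sum over this list ran from 0 to 2155 TPM in CD11b+CD48+SK cells with a median of 203 TPM. The medians elsewhere were 209 TPM (WT-MPP, up to 4029), 247 TPM (BM HSC, up to 2618) and 246 TPM (FL HSC, up to 968). Of 20 T cell markers 10 are listed and 6 were found. Cd3d was in 1 CD11b+CD48+SK cell and Cd3g in none. Cd4 was in 1 of 47 CD11b+CD48+SK cells against 3 of 41 WT-MPP, Cd6 in none against 1 and Thy1 in 2 against none. Lck, the kinase of T cell receptor signalling, was in 18 of 47 CD11b+CD48+SK cells, 5 of 41 WT-MPP and 20 of 56 FL HSC. Ubash3a, a suppressor of T cell receptor signalling, was in 17 of 47 against none of the WT-MPP, and Cd7 in 6 against none. The sum of this list had a median of 17.3 TPM (range 0 to 614) in CD11b+CD48+SK cells and 0 in WT-MPP (up to 292), and its rho with Dntt was 0.31. Myeloid markers summed to a median of 2354 TPM (574 to 9068) in CD11b+CD48+SK cells and 1911 TPM (38.4 to 5750) in WT-MPP, with a rho of -0.17 with Dntt. Lyz2 and Prtn3 of that list were in at least 35 cells of every population, whereas the granule protease gene Ctsg was in 39 of 47 CD11b+CD48+SK cells and no WT-MPP, Fcgr3 in 10 against 2, Ms4a3 in 7 against none and Elane in none of either. Other lists also moved with the population. The NK cell list, with 4 of 14 genes listed, had a median sum of 1024 TPM (3.45 to 4176) in CD11b+CD48+SK cells and 1.22 TPM (0 to 1308) in WT-MPP. That sum rests almost wholly on Nkg7, in 46 of 47 against 18 of 41 cells. Klrd1 was in 2 against none, Gzmb in 1 against 4 and Klrb1c in none of either. The stem cell list had 956 TPM (67.0 to 4121) against 5258 TPM (2317 to 14348), and the erythroid and megakaryocyte list 698 TPM (44.9 to 4354) against 4225 TPM (277 to 11587). The part of any of these lists in the values above was not tested.

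Other genes of lymphoid development were read from 4 lists against WT-MPP, with 19% of all genes higher and 5.01% lower as background. Of 44 further lymphoid regulators, 38 are listed and 33 passed the filter; 2 were higher and 4 lower. The 2 were Spi1, listed as Sfpi1, the ETS factor PU.1 (1.20), and Cbfb, the partner of the Runt-domain factors (1.07). Their mean TPM hardly differed, at 432 against 419 for Spi1 and 83.1 against 88.9 for Cbfb, so neither passed on the log2 of mean TPM plus 1, where Cbfb turned direction. The lower ones were led by Gata3, the T lineage factor (-1.80, in 3 of 47 against 15 of 41 cells), Tox (-1.26) and Myb (-1.24). The median of the list was 0.30, against 0.21 over all genes. Tcf7, a target of Notch in T cell specification, was at 1 TPM in no CD11b+CD48+SK cell, WT-MPP or BM HSC and in 2 of 56 FL HSC. Lef1 was in no CD11b+CD48+SK cell or FL HSC, in 2 of 41 WT-MPP and in 1 of 36 BM HSC.

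Of 43 receptors and signalling genes of lymphoid cells, 39 are listed and 33 passed the filter; 10 were higher and 2 lower, with a median of 0.54. The 10 include Flt3 (1.22), whose protein CD135 was a gate of the WT-MPP but not of the CD11b+CD48+SK cells. Tespa1, which acts in T cell receptor signalling, was higher by 5.67 (44 of 47 against 6 of 41), and Cd53, a tetraspanin, by 3.85. The lower ones were Lax1, an adaptor (-1.73), and Kit, the stem cell factor receptor (-1.59), whose protein c-Kit was a gate of both populations. On the log2 of mean TPM plus 1 the counts were 5 higher and 4 lower.

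Of 42 genes of the Notch pathway, 36 are listed and 29 passed the filter; 2 were higher, none lower, and the median was 0.12. Among them was Myc, a growth regulator and Notch target in T cell progenitors (1.37). On the log2 of mean TPM plus 1 none was higher and 4 were lower. Hes1, the canonical target, was in none of the 47 CD11b+CD48+SK cells and in 3 of 41 WT-MPP. Of 16 genes for recombination and end joining, 14 are listed and 12 passed; 3 were higher, none lower, and the median was 0.02. These were Ung, which removes uracil from DNA (3.17, in 27 of 47 against 3 of 41 cells), Xrcc6, encoding Ku70 (1.78), and Hmgb2 (1.31). The mean TPM of Xrcc6 was 156 against 155, so its difference was not there on the log2 of mean TPM plus 1, and 2 genes of the list were lower on that scale. Ung was in 31 of 56 FL HSC, and against FL HSC none of the 12 was higher and 1 was lower.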

How the data were processed

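The RNA of single sorted cells was amplified with the Discover-sc WTA Kit V2 and sequenced as 1 library per cell. The authors deposited 1 table of length-scaled transcript abundance (TPM) per gene and cell. The submitters' processing notes name HISAT2 2.1.0, SAMtools 0.1.19 and StringTie 1.3.4 and the mm10 build, and the strand setting and the filter behind the listed genes are not given in the sources used here. Of 181 columns of cells, 1 matched no sample label and was not used, and no pair of columns was identical. TPM holds no read counts, so depth is unknown.

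From this table, shares of cells at 1 TPM or more (exact 95% intervals), means of log2(TPM + 1) with a pseudocount of 1 and Spearman's rho over cells were computed. The software was Python 3.11.15, scipy 1.17.1, pandas 2.3.3 and numpy 2.4.6, with plots from matplotlib 3.10.9. The scripts were tested on simulated data. Genes at 1 TPM or more in at least 10% of cells of 1 population entered the comparisons, and a difference of 1 was the threshold for a call. Each population was 1 sample, so no test was made; the study's tests over single cells were not repeated. Named genes were the members, the 3 genes of highest rho with each member found in at least 10 and at most all but 5 of the CD11b+CD48+SK cells (which leaves out Dntt), up to 3 genes of each list past the threshold in each direction against WT-MPP, and Flt3, Mpo, Hoxb5, Itgam and Cd48. Other genes are named as markers. The members and lists were chosen with earlier results of these data known, and Satb1 and Runx3 are genes that the study itself names from these cells. Alternatives were other pseudocounts, other limits for presence, the log2 of mean TPM, scaling of each cell by its median ratio and cells with 3500 to 5500 genes. Some genes that this rule names are not reported here.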

Additional observations from a re-analysis of the deposited data

How the results depend on the processing

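Of 121 alternative values for 22 results, 82 stayed and 39 moved. These results are counts, shares and a median, which cannot change sign. Dntt, Satb1 and Runx3 stayed higher in CD11b+CD48+SK cells than in each other population under every setting. Cbfb of the regulators, past the threshold against WT-MPP, changed its sign on the log2 of mean TPM plus 1. In the comparisons with CD11b+CD48+SK cells, 5 rather than 3 listed genes were higher against BM HSC and 5 against FL HSC on the log2 of mean TPM plus 1, which adds Rag2 and Notch1, and 2 rather than 3 against WT-MPP and BM HSC with a pseudocount of 10, which drops Runx3. WT-MPP against BM HSC, with 0 genes higher, gave 2 with a pseudocount of 0.1 and 2 on the log2 of mean TPM (Dntt and Satb1), and 1 (Dntt) with scaled cells and 1 in cells with 3500 to 5500 genes. FL HSC against BM HSC gave 2 higher (Satb1, Notch1) and 1 lower (Runx3) with a pseudocount of 0.1, and 1 higher (Satb1) and 1 lower (Runx3) on the log2 of mean TPM. For the lists against WT-MPP, a pseudocount of 0.1 gave 10 higher for regulators, 16 higher and 4 lower for receptors and signalling, 5 higher and 1 lower for the Notch pathway and 1 lower for recombination. A pseudocount of 10 gave 0 higher and 0 lower for regulators, 5 higher and 1 lower for receptors and 1 higher for the Notch pathway. The log2 of mean TPM gave 5 higher and 4 lower for receptors, 0 higher and 4 lower for the Notch pathway and 2 lower for recombination. Scaled cells gave 1 higher for regulators. Cells with 3500 to 5500 genes gave 1 higher for regulators, 4 lower for receptors, 1 higher for the Notch pathway and 1 lower for recombination. The cause was not tested. The share of CD11b+CD48+SK cells with Dntt was 100% at any TPM above 0, 80.9% at 5 TPM or more and 74.5% at 10 TPM or more, and the share with 3 or more listed genes was 89.4%, 57.4% and 51.1%. The share with Dntt and Satb1 was 87.2% at any TPM above 0 and 53.2% at 10 TPM or more. Since depth is unknown, an absent transcript cannot be told apart from one missed at low depth. No paired analysis was possible because cell numbers in the titles only name cells and no test was made.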

Other observations

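Across the 47 CD11b+CD48+SK cells, 7 genes had a Spearman's rho below -0.5 with Dntt. The 5 lowest were Nkg7, Pgam1, Cpa3, Esyt1 and Hemgn, at -0.63, -0.59, -0.55, -0.51 and -0.51, and Nkg7 and Cpa3 are described here, chosen after their values were seen. Nkg7, a cytotoxic granule protein gene, was present in 46 of the cells. Its median was 619 TPM in the 29 cells with Dntt at 100 TPM or more and 1348 TPM in the 18 others. Cpa3, the mast cell carboxypeptidase, was present in 41 cells, with medians of 5.62 TPM and 283 TPM in the same cells. For the list of NK cell markers, the rho of the summed TPM with Dntt was -0.61. Of its 14 genes 4 are listed, and those besides Nkg7 were in at most 2 CD11b+CD48+SK cells. That sum is therefore nearly Nkg7 alone and adds little to its own rho. For the mast cell and basophil list, which holds Cpa3, the rho was -0.53. The dendritic cell list, which holds Flt3, had 0.54. The cells share 1 sorting gate and 1 protocol, and no cell is tied to a recipient. The 5 named genes are the lower end of 7232 coefficients, and no p is given.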
